A study of Mus musculus with 2 samples.

Results

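The RGS genes encode regulators of G-protein signalling, and 7 of them (Rgs1, Rgs2, Rgs3, Rgs10, Rgs14, Rgs18 and Rgs19) were read here by their symbols among the 32589 features of a single-cell RNA sequencing series of mouse microglia. Microglia, the resident macrophages of the brain, had been sorted as CD45-low, CD11b-positive cells from the prefrontal cortex of C57BL/6 mice, and each cell's transcripts were counted with molecular tags (UMIs). The groups were vehicle and corticosterone, the latter a glucocorticoid given by oral gavage to model depression with raised stress hormone, with 1 library in each. Age, sex, dose, duration and the number of animals behind a library are not given in the sources used here. Since a group was a single library, no test was possible and no p-value is given, so every difference compares these libraries, and group, batch and preparation cannot be told apart. Intervals are at the 95% level and cover counting error only.

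RGS proteins bind the active, GTP-loaded alpha subunit of a heterotrimeric G protein and speed its return to the inactive state, which shortens the signal from a G-protein-coupled receptor. Microglia use such receptors, many of them coupled to Gi, to sense nucleotides, chemokines and complement fragments. Rgs2 acts mainly on Gq and its transcript is known to respond quickly to stimuli, Rgs10 is a small Gi regulator known for its abundance in microglia, and Rgs18 is known from platelets and other blood cells.

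After filtering, the vehicle library held 10500 cells and 49325067 UMIs, and the corticosterone library held 17883 cells and 85103539 UMIs. Microglia-like cells, which carried all 8 microglia markers used, numbered 8187 (78.0%) in vehicle and 15398 (86.1%) in corticosterone. Their median depths were 3164 and 4001 UMIs. Border-associated macrophage-like cells numbered 1058 and 809, neutrophil-like cells 503 and 408, and monocyte-like cells, whose cluster was led by the class II genes H2-Eb1 and H2-Aa, 97 and 115. The monocyte-like class differed in make-up between the libraries. Its 7 monocyte markers summed to 1283 CPM in vehicle, less than the 2829 CPM of vehicle neutrophil-like cells, and to 10684 CPM in corticosterone, and at clustering resolution 0.3 it held 13 vehicle and 61 corticosterone cells. Values for it are given with that limit. Macrophage-like and neutrophil-like cells also differed in their own markers. The 8 macrophage markers summed to 3789 CPM in vehicle and 7471 CPM in corticosterone macrophage-like cells. The 10 neutrophil markers summed to 118997 and 172867 CPM in neutrophil-like cells. The libraries shared 104 cell barcodes, and leaving these out moved no member past or below the 2-fold mark used below.

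Genes of the family lie close together in places. In the GRCm38 build with GENCODE annotation, Rgs2 (ENSMUSG00000026360; chr1:143999338-144004161), Rgs1 (ENSMUSG00000026358; chr1:144242296-144249242) and Rgs18 (ENSMUSG00000026357; chr1:144752683-144775435) all lie on the minus strand of chromosome 1. Rgs13 was the next protein-coding gene between Rgs2 and Rgs1, and Rgs21 lay between Rgs1 and Rgs18. Microglia-like cells held 1 and 0 UMIs of Rgs13 in vehicle and corticosterone and 0 and 0 of Rgs21. Uchl5, a deubiquitinase gene on the outer side of Rgs2, was at 28.5 and 30.2 counts per 1e6 UMIs (CPM), a log2 ratio of 0.08 (-0.03 to 0.20). Brinp3, on the outer side of Rgs18, had 0 and 5 UMIs. The other members lie apart: Rgs3 (ENSMUSG00000059810) at chr4:62559847-62704001, plus strand, Rgs10 (ENSMUSG00000030844) at chr7:128373621-128418758, minus strand, Rgs14 (ENSMUSG00000052087) at chr13:55369732-55384687, plus strand, and Rgs19 (ENSMUSG00000002458) at chr2:181688419-181693977, minus strand. Beside Rgs14, Lman2, which encodes a lectin of the secretory pathway, was at 112 and 149 CPM, a log2 ratio of 0.41, and Slc34a1 had 0 and 2 UMIs. Beside Rgs10, Tial1, an RNA-binding protein gene, stood at 136 and 119 CPM, a log2 ratio of -0.19. Tcea2, beside Rgs19, stood at 6.99 and 7.08 CPM.

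The promoters of Rgs2 and Rgs10 are shown for the following reason. Taken as whole classes, these members were the ones lower in corticosterone in all 4 named classes by log2 ratios of about -0.65 or lower. That did not hold for Rgs2 in each neutrophil-like cluster. Of the 2 members, only Rgs2 was higher in cells with more immediate early transcripts. Both points are described further on. Both are RefSeq sequences of GRCm38.p6 for the 250 bases before the RefSeq transcript start, 5′ to 3′ on the gene's own strand. The Rgs10 bases lie inside the GENCODE gene given above, whose 5′ end is further upstream and outside the window. Capitals mark matches, on either strand, to the cAMP response element core CGTCA and to the GC box GGGCGG, and no match overlapped another.
Rgs2, chr1:144004150-144004399, minus strand: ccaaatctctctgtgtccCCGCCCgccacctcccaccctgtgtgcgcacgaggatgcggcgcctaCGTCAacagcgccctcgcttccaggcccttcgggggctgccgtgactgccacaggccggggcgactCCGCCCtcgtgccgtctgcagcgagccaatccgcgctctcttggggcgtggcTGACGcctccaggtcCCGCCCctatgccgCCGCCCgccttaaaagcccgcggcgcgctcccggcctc
Rgs10, chr7:128418173-128418422, minus strand: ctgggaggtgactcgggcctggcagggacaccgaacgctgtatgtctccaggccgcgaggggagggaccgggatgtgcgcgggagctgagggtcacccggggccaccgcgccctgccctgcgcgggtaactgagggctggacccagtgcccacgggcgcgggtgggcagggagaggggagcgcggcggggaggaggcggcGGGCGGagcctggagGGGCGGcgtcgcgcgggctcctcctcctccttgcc
The Rgs2 window of 300 bases, 50 of them after the start, held 2 CGTCA cores and 4 GC boxes. The Rgs10 window held 0 CGTCA cores and 2 GC boxes. TGTTCT, an arm of the glucocorticoid response element, had 0 matches in either window. By the same search both Rgs3 windows held 0 CGTCA and 1 TGTTCT each, and of 3 Rgs19 windows 0 held CGTCA and 1 held TGTTCT. Of 32851 mouse promoters of the same length, 20.8% held CGTCA, 35.7% GGGCGG and 19.0% TGTTCT. These matches describe letters in the window, and no binding was measured.

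In microglia-like cells, Rgs2 and Rgs10 were lower in corticosterone, Rgs14 and Rgs19 higher, and Rgs1 nearly level. A gene was counted as past the 2-fold mark when its log2 ratio of corticosterone over vehicle was at least 1 or at most -1. Of the 7 members, 2 were past it, Rgs14 on the higher side and Rgs18 on the lower. Neither of these reached a mean of 20 CPM, and 0 of the 5 members above that level were past the mark. Over all genes with UMIs in both libraries and no minimum, 20.2% were past it in either direction. Among 6611 genes with a mean of at least 20 CPM the background was 1.75% higher and 1.3% lower, with a median log2 ratio of 0.00 and 5th and 95th percentiles of -0.56 and 0.59. A counting interval that leaves out 0 was no mark of distinction at this depth, since it lay above 0 for 39.2% of these genes and below 0 for 37.7%.

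Rgs2 stood at 2184 CPM (2168 to 2200) with vehicle against 1313 CPM (1305 to 1321) with corticosterone, for a log2 ratio of -0.73 (-0.75 to -0.72). Only 2.60% of the 6611 genes had a lower ratio, which places Rgs2 near the low end without reaching the 2-fold mark. Rgs10 stood at 1160 CPM (1149 to 1172) and 709 CPM (703 to 715), a log2 ratio of -0.71 (-0.73 to -0.69), and 2.87% of genes had a lower ratio. The difference in Rgs10 was therefore close in size to that in Rgs2, although the proteins act mainly on different alpha subunits.

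Rgs1, Rgs3 and Rgs18 belong to the same subfamily as Rgs2 and also had ratios below 0, of different sizes. Rgs1, known to restrain chemokine responses of leukocytes, was at 442 CPM (435 to 450) with vehicle against 413 CPM (409 to 418) with corticosterone, for a log2 ratio of -0.10 (-0.13 to -0.07) that lay inside the central range of all genes. Rgs3, a regulator of Gi and Gq, was at 83.9 CPM (80.8 to 87.0) and 69.9 CPM (68.0 to 71.8), a log2 ratio of -0.26 (-0.33 to -0.20). Rgs18 was almost undetected in microglia-like cells, with 31 UMIs in vehicle and 19 in corticosterone, or 0.934 CPM (0.635 to 1.33) and 0.263 CPM (0.159 to 0.411). Its log2 ratio was -1.83 (-2.73 to -0.96), but at 0.2 to 2 CPM 21.1% of 3311 genes were past the mark on the lower side, so this call stood at a level where such ratios were common.

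Rgs14, which carries a motif that binds inactive Gi as well as its RGS domain, was the member with the largest higher ratio. It had 245 UMIs, 7.38 CPM (6.49 to 8.37), with vehicle and 1372 UMIs, 19.0 CPM (18.0 to 20.1), with corticosterone, for a log2 ratio of 1.37 (1.17 to 1.57). In its own range of 5 to 20 CPM, 3.26% of 3069 genes were past the mark on the higher side, and 98.3% had a lower ratio than Rgs14. Rgs19, a Gi regulator also known as GAIP, was at 151 CPM (146 to 155) and 186 CPM (183 to 189), a log2 ratio of 0.30 (0.26 to 0.35), within the range of most genes.

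Shares of cells with a UMI were compared after each microglia-like cell had been thinned to 1000 UMIs, which kept 7514 vehicle and 15302 corticosterone cells and left out 673 and 96 shallower ones. With vehicle, Rgs2 was detected in 81.2% of them (80.3 to 82.1%), and with corticosterone in 64.7% (63.9 to 65.4%); before thinning these shares were 94.1% and 92.9%. For Rgs10 the thinned shares were 66.2% (65.1 to 67.3%) and 48.5% (47.8 to 49.3%), and those before thinning 89.7% and 88.7%. Both were thus detected in most cells of both libraries at full depth, and the difference appeared when depth was made equal. Rgs14 was seen in 0.745% (0.563 to 0.967%) and 2.08% (1.86 to 2.32%), or 2.74% and 7.86% unthinned, so most cells of either library showed none at these depths. Rgs19 was found in 13.9% and 16.7%, Rgs1 in 27.6% and 24.7%, Rgs3 in 7.65% and 6.26% and Rgs18 in 0.106% and 0.0457%, against 38.3% and 51.8%, 52.2% and 50.2%, 22.0% and 21.3%, and 0.330% and 0.117% unthinned. Erythroid cell-like barcodes, which should lack most of these transcripts, were too few to set a background: of 16 deep enough in vehicle, with a median of 4777 UMIs over all 17, 2 held Rgs2, 2 held Rgs10 and 1 held Rgs1. The 0 of 16 for Rgs3, Rgs14, Rgs18 and Rgs19 allows shares of up to 18.75% by the limit of 3 counts and 20.6% by the exact binomial bound, and 3 such barcodes in corticosterone allow no statement.

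The cell classes differed most for Rgs18, which was nearly absent from microglia-like cells. It stood at 25.0 CPM (22.2 to 28.1) and 41.2 CPM (36.6 to 46.2) in border-associated macrophage-like cells, the macrophages of meninges and vessel walls, and at 61.8 CPM (52.6 to 72.2) and 102.7 CPM (90.3 to 116) in neutrophil-like cells. In monocyte-like cells it stood at 21.5 CPM (12.7 to 33.9) and 35.4 CPM (25.1 to 48.3). Over its microglia-like level the log2 ratio was 4.74 (4.21 to 5.33) in vehicle macrophage-like and 6.05 (5.49 to 6.65) in vehicle neutrophil-like cells. In corticosterone these were 7.29 (6.62 to 8.04) and 8.61 (7.93 to 9.36), and the order neutrophil-like, macrophage-like, microglia-like held in both libraries with intervals that did not overlap. Macrophage-like and monocyte-like cells were not ordered here, since their intervals overlapped and no ratio between them was computed. Between the libraries, the monocyte-like log2 ratio of 0.72 rested on 18 and 39 UMIs, with an interval from -0.12 to 1.61.

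**Figure D1:**
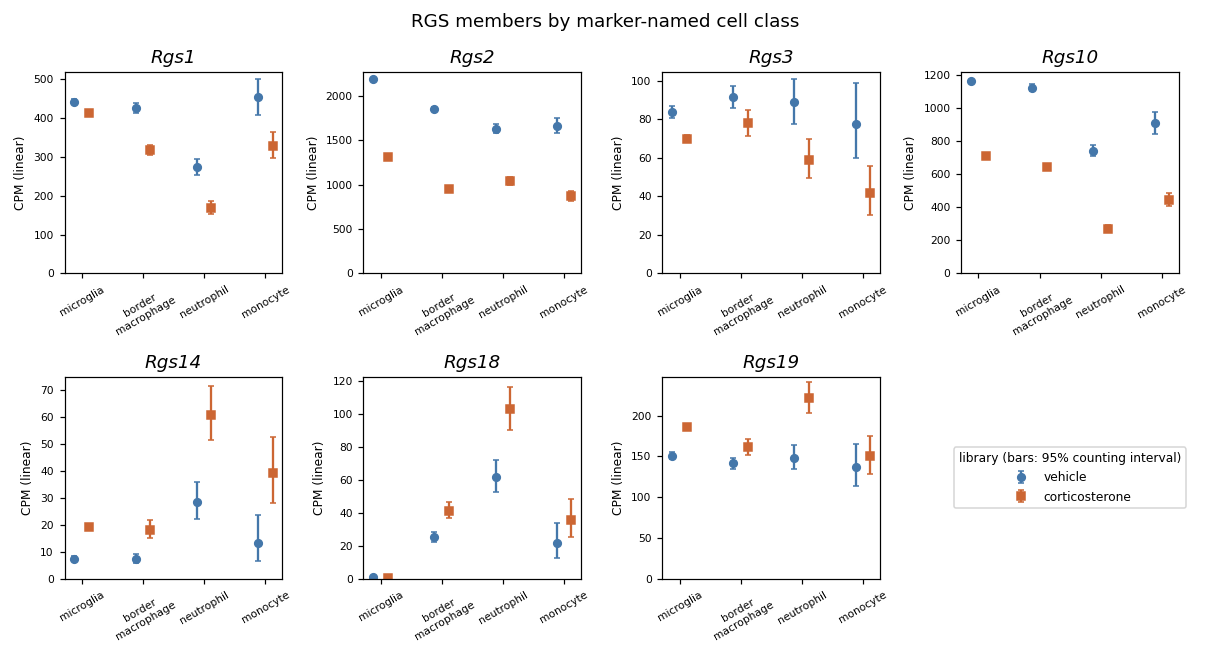
Level of each RGS member (CPM of summed UMIs, linear axis from 0) in 4 marker-named classes of the vehicle (circles) and corticosterone (squares) libraries, with bars for the 95% counting interval. Rgs18 is near 0 in microglia-like cells and reaches 102.7 CPM in corticosterone neutrophil-like cells, while Rgs2 and Rgs10 are lower in corticosterone in every class shown.

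The highest Rgs14 values were also those of neutrophil-like cells, at 28.4 CPM (22.3 to 35.7) with vehicle against 60.7 CPM (51.3 to 71.4) with corticosterone, 3.85 and 3.19 times its microglia-like level. Monocyte-like cells, at 13.1 CPM (6.55 to 23.5) and 39.0 CPM (28.2 to 52.5), had lower values with intervals that overlapped these at their ends. Overlap alone does not show equal levels, and no ratio between the 2 classes was computed, so they were not ordered here. In macrophage-like cells it stood at 7.38 and 18.2 CPM, with log2 ratios to microglia-like cells of 0.00 (-0.38 to 0.36) and -0.06 (-0.33 to 0.20). As whole classes, microglia-like cells held the highest Rgs2 and Rgs10 in both libraries. The Clec4d-led cluster, which makes up 276 of the 408 neutrophil-like cells of corticosterone, was an exception for Rgs2, at 1508 CPM and a log2 ratio to microglia-like cells of 0.20 (0.13 to 0.26). Rgs2 was at 1850 and 950 CPM in macrophage-like, 1629 and 1040 CPM in neutrophil-like and 1665 and 875 CPM in monocyte-like cells. In vehicle, the intervals of the last 2 classes overlapped, and no other pair of the 4 classes did, while in corticosterone those of macrophage-like and monocyte-like cells overlapped. Rgs10 was at 1123 and 643 CPM in macrophage-like, 908 and 446 CPM in monocyte-like and 740 and 269 CPM in neutrophil-like cells, an order of whole classes with no overlap of neighbouring intervals in either library. The neutrophil-like level pools the Clec4d-led cluster at 921 and 405 CPM, the former above the vehicle monocyte-like value, and a cluster led by Camp at 515 and 109 CPM.

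Rgs1 was set apart in neutrophil-like cells, with log2 ratios to microglia-like cells of -0.69 and -1.28, beside -0.65 and -1.40 for Rgs10. Rgs1 was at 426 and 318 CPM in macrophage-like, 453 and 329 CPM in monocyte-like and 273 and 170 CPM in neutrophil-like cells, where both values lay below those of the other 3 classes of at least 50 cells in the same library. Rgs3 was at 91.2 and 77.8 CPM in macrophage-like, 88.7 and 59.0 CPM in neutrophil-like and 77.6 and 41.7 CPM in monocyte-like cells, and its 4 vehicle levels overlapped in all neighbouring pairs. Rgs19 was at 141 and 162 CPM, 149 and 221 CPM, and 137 and 150 CPM in the same 3 classes, with the neutrophil-like level of corticosterone above the others. The neutrophil-like Rgs3 level of corticosterone pools the Clec4d-led cluster at 89.5 CPM and a cluster led by Camp at 23.4 CPM.

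Barcodes of the other classes also carried microglia transcripts, which bears on Rgs2, Rgs10 and Rgs1. The 8 microglia markers stood at a median of 0.834 (range 0.768 to 0.871) times their microglia-like CPM in vehicle macrophage-like barcodes and 0.647 (0.590 to 0.685) times in corticosterone. Median depth in macrophage-like barcodes was 6957.5 and 6752 UMIs, above that of microglia-like cells, and no doublets were removed. The marker values were 0.723 and 0.463 in monocyte-like and 0.607 and 0.366 in neutrophil-like barcodes. Different clusters held most of the neutrophil-like class in each library, a cluster led by Camp in vehicle (296 of 503 cells) and a cluster led by Clec4d in corticosterone (276 of 408). In the Camp-led cluster Rgs10 stood at 0.444 times its microglia-like level in vehicle and 0.154 times in corticosterone, beside marker medians of 0.426 and 0.168, and Rgs1 stood at 0.478 and 0.148. In the Clec4d-led cluster Rgs10 stood at 0.794 and 0.572 beside marker medians of 0.739 and 0.532, and Rgs1 stood at 0.731 and 0.635. Rgs10 was thus close to the marker median in both neutrophil-like clusters of both libraries. In macrophage-like barcodes, at 0.968 and 0.907, Rgs10 lay above the highest of the 8 markers in both libraries. In corticosterone it also lay above the highest marker in the Clec4d-led cluster (0.539) and, at 0.629, in monocyte-like barcodes (0.524). Rgs1 in the Clec4d-led cluster was above the highest marker in corticosterone too. Rgs2 and Rgs19 were above the marker median in both neutrophil-like clusters of both libraries. The part that microglial RNA has in the class levels was not tested.

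**Figure D2:**
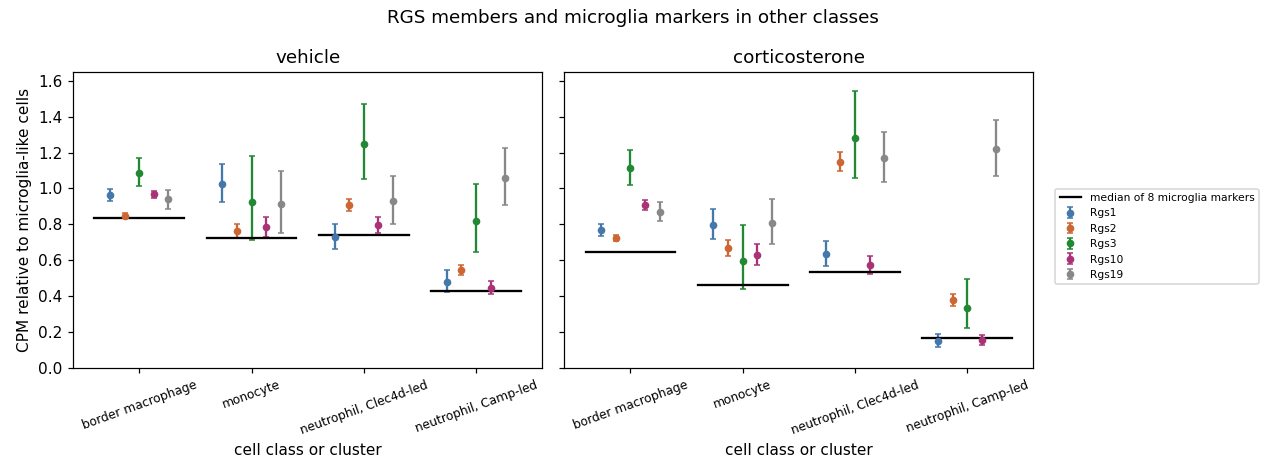
CPM of 5 RGS members relative to microglia-like cells of the same library (linear axis from 0; 1 means an equal level) in 2 classes and in both neutrophil-like clusters, with 95% counting intervals; black lines mark the median of 8 microglia markers. In the Camp-led cluster of corticosterone, Rgs10 (0.154) and Rgs1 (0.148) sit at the marker line (0.168) and Rgs19 (1.22) far above it.

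The difference between the libraries had the same sign in all 4 named classes for every member but Rgs18, although the small difference of Rgs1 in microglia-like cells changed sign, to 0.0215, under DESeq2 size factors. Rgs14 was higher in corticosterone with log2 ratios of 1.31 (0.90 to 1.72) in macrophage-like, 1.10 (0.68 to 1.52) in neutrophil-like and 1.57 (0.59 to 2.67) in monocyte-like cells, beside 1.37 in microglia-like cells. The 3 values rested on 84 and 128, 73 and 146, and 11 and 43 UMIs. The neutrophil-like value pools a Clec4d-led cluster at 1.34 (0.73 to 1.99) and a Camp-led cluster at 0.86 (0.29 to 1.45), below the mark. Genes past the mark on the higher side made up 4.24% of those at 5 to 20 CPM in macrophage-like cells, 2.87% of those above 20 CPM in neutrophil-like cells and 5.83% in monocyte-like cells. Rgs2 was at -0.96, -0.65 and -0.93 in the same order of classes. Its neutrophil-like value pools a Clec4d-led cluster at -0.40 (-0.48 to -0.31) and a Camp-led cluster at -1.27 (-1.41 to -1.12).

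Rgs10 passed the mark on the lower side in neutrophil-like cells, at -1.46 (-1.59 to -1.33), and in monocyte-like cells, at -1.03 (-1.19 to -0.86), where 4.88% and 4.82% of genes above 20 CPM were past it. The latter value compares groups of cells whose monocyte markers summed to 1283 and 10684 CPM, and the part of that difference in it was not tested. In macrophage-like cells it was at -0.81 (-0.85 to -0.76), where 1.11% were past it. Neutrophil-like barcodes of corticosterone also held lower relative levels of microglia markers than those of vehicle, as given above, and the Rgs10 ratio was -1.18 in the Clec4d-led and -2.24 in the Camp-led cluster. Rgs19 was higher at 0.57 (0.38 to 0.77) in neutrophil-like cells and 0.19 (0.08 to 0.30) in macrophage-like cells, and its interval in monocyte-like cells included 0 (-0.22 to 0.49). Rgs1 was lower by more in the other classes than in microglia-like cells, at -0.42, -0.69 and -0.46 in macrophage-like, neutrophil-like and monocyte-like cells, beside the lower marker levels there. Rgs3 was at -0.23, -0.59 and -0.90. The neutrophil-like values pool clusters of unequal weight: in the Clec4d-led cluster Rgs1 was at -0.30 and Rgs3 at -0.23 (-0.59 to 0.13), and in the Camp-led cluster at -1.79 and -1.55. In the unnamed cluster of low-UMI barcodes (638 and 1147 cells), Rgs2 was at -0.89 and Rgs10 at -0.77, and Rgs14 was at 0.55 with an interval that included 0 (-0.33 at its lower end).

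**Figure D3:**
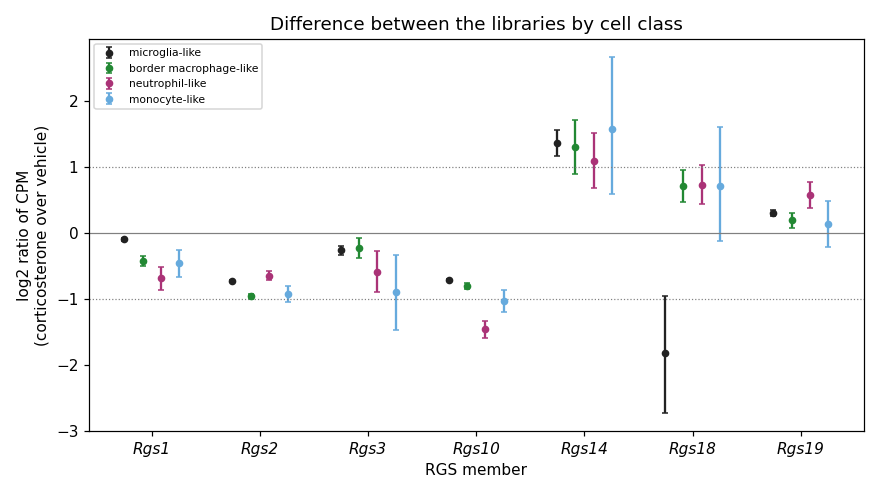
Log2 ratio of CPM, corticosterone over vehicle, for each RGS member in 4 marker-named classes, with 95% counting intervals; dotted lines mark 2-fold and the grey line no difference. Rgs14 lies above 1 in all 4 classes (1.10 to 1.57), Rgs2 and Rgs10 lie below 0 in all 4, and Rgs18 lies below 0 in microglia-like cells (-1.83) and above 0 in the others (0.72, 0.73 and 0.72), where the interval of the last, monocyte-like cells, includes 0.

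Within microglia-like cells, Rgs2 and Rgs3 varied with immediate early genes, transcripts such as Fos and Jun that appear within minutes of a stimulus and are also raised by tissue dissociation, which here used a warm enzyme digest. Cells of each library were ordered by the share of their UMIs in 18 such genes and divided into 5 equal bins. Across the bins from lowest to highest, Rgs2 stood at 1822, 1960, 2157, 2306 and 2612 CPM in vehicle and at 1162, 1195, 1320, 1345 and 1540 CPM in corticosterone. It was higher in each bin than in the one before in both libraries, and the highest corticosterone bin lay below the lowest vehicle bin. Rgs3 stood at 65.1, 74.7, 81.7, 94.6 and 98.3 CPM in vehicle and at 43.2, 57.1, 65.4, 78.5 and 103.7 CPM in corticosterone, so the libraries differed in the lowest bin and overlapped in the highest. Rgs10 ranged over 1066 to 1211 CPM and 670 to 771 CPM with no such climb, and its lowest value in each library was in the highest bin. Rgs1 ran the other way over the low bins, from 504 to 421 CPM in vehicle and from 525 in the lowest bin to 364 in the 4th and 417 in the highest in corticosterone. The median share of these genes was 3.08% in the lowest and 6.55% in the highest vehicle bin, and 2.14% and 6.35% in corticosterone.

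**Figure D4:**
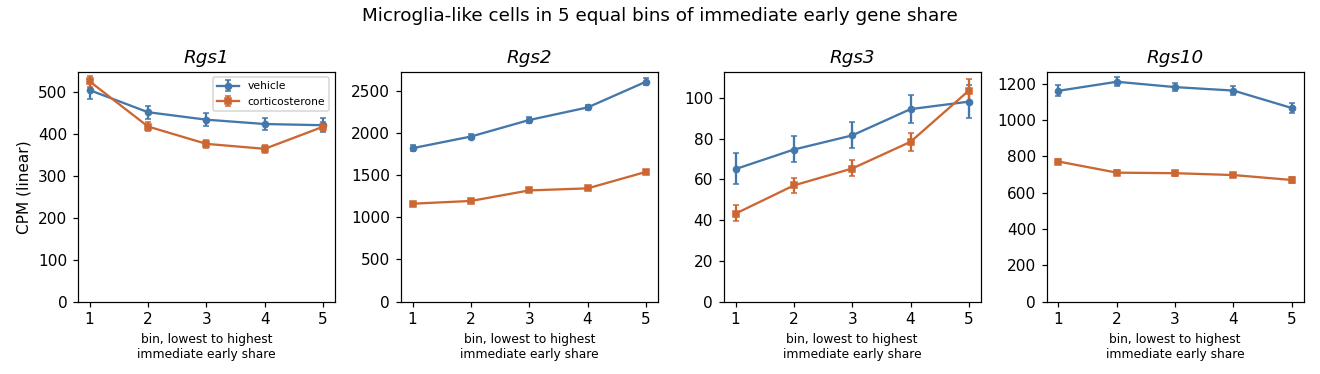
CPM (linear axis from 0) of 4 RGS members in microglia-like cells of each library divided into 5 equal bins by immediate early gene share, with 95% counting intervals. Rgs2 and Rgs3 climb from bin 1 to bin 5 in both libraries, the Rgs2 lines stay apart (vehicle from 1822, corticosterone up to 1540 CPM), and Rgs10 stays between 1066 and 1211 CPM in vehicle and between 670 and 771 CPM in corticosterone.

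The same cells were also ordered by UMIs per cell and by mitochondrial share, which makes 15 bins over 3 orderings. Rgs2 and Rgs10 were lower, and Rgs14 and Rgs19 higher, in corticosterone than in the vehicle bin of the same rank in 15 of 15. Over all 15, Rgs2 ranged from 1822 to 2612 CPM in vehicle and from 1091 to 1540 CPM in corticosterone, and Rgs14 from 5.36 to 9.03 and from 17.4 to 22.6 CPM, without overlap. Rgs3 was lower in 14 and Rgs1 in 12 of 15. Levels of several members varied with mitochondrial share. From the lowest to the highest bin Rgs2 went from 2508 to 1889 CPM in vehicle and from 1536 to 1091 CPM in corticosterone, Rgs1 from 493 to 387 and from 546 to 311 CPM, and Rgs3 from 94.8 to 79.3 and from 79.9 to 58.1 CPM. Rgs19 went from 208 to 167 CPM in corticosterone, while in vehicle its end bins, at 158 and 147 CPM, had overlapping intervals. The median mitochondrial share over all kept cells was 2.67% in vehicle and 4.20% in corticosterone. In bins of close mitochondrial share, the highest of vehicle (median 4.36%) and the middle one of corticosterone (4.11%), Rgs2 was at 1889 and 1344 CPM.

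Clustering the microglia-like cells again, with RGS genes left out of the clustering genes, gave 6 sub-clusters with at least 50 cells in each library. A small one led by Lpl and Lgals3, genes of lipid handling and phagocytosis that are known from disease-associated microglia, held 82 vehicle and 104 corticosterone cells. In it Rgs10 was at 747 CPM (663 to 838) and 486 CPM (435 to 542), and Rgs2 at 1617 CPM (1493 to 1749) and 919 CPM (848 to 994). Rgs2 and Rgs10 had their lowest level of the 6 there in both libraries, with intervals below those of the others. Rgs19 and Rgs14 also had their lowest values there, from 36 and 89 UMIs of Rgs19 and 0 and 8 of Rgs14. Their intervals overlapped those of other sub-clusters, at 65.1 to 129 and 106 to 162 CPM for Rgs19 and 0 to 9.53 and 5.12 to 23.4 CPM for Rgs14. Rgs1 was high instead, at 530 CPM (460 to 607) and 797 CPM (731 to 868). In a sub-cluster led by Cmss1, Cdk8 and Klf4, which held 2817 and 5293 cells and had Rgs1 itself among its 10 leading genes, Rgs1 was at 587 and 541 CPM. In the largest, led by the immediate early genes Nr4a1 and Egr3, it was at 409 and 367 CPM. The interferon-led sub-cluster (Ifit3b first) had Rgs1 at 357 CPM (313 to 406) and 348 CPM (330 to 368), its lowest value in each library. Both intervals overlapped those of the largest sub-cluster, at 401 to 417 and 362 to 373 CPM. Other-cell transcripts led some of these groups, among them one led by Ngp and Camp. By value, no member had its highest sub-cluster in common between the libraries. In vehicle, however, the interval of each member's highest value overlapped that of another sub-cluster, as for Rgs19 at 151.9 and 151.4 CPM. The point therefore does not show that the libraries differ in pattern.

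**Figure D5:**
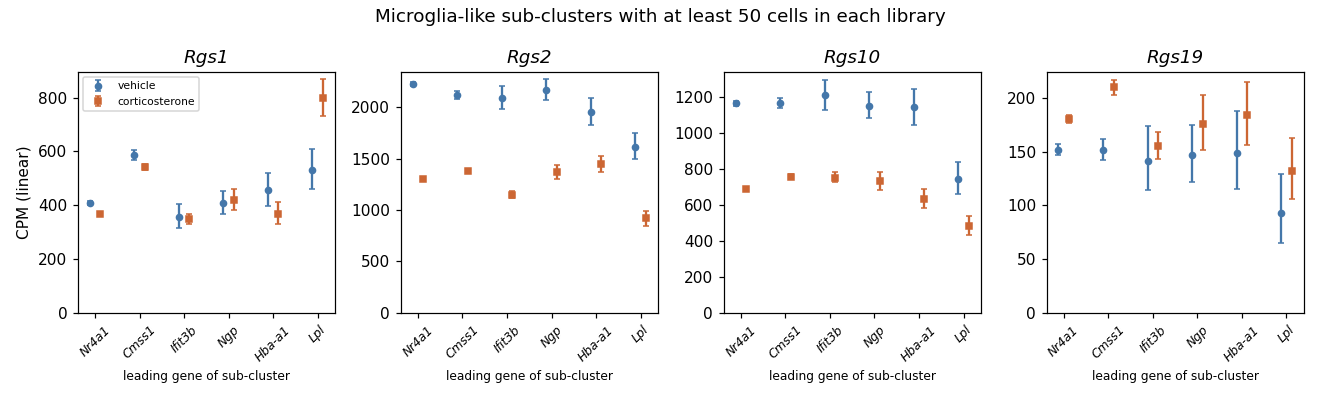
CPM (linear axis from 0) of 4 RGS members in the 6 microglia-like sub-clusters with at least 50 cells in each library, named on the horizontal axis by their leading gene, with 95% counting intervals. In the Lpl-led sub-cluster Rgs10 (747 and 486 CPM) and Rgs2 (1617 and 919 CPM) are at their lowest, while Rgs1 reaches 797 CPM in corticosterone.

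The rest of the family was barely present. Of 14 other RGS genes in the files, 0 reached a mean of 20 CPM in microglia-like cells, and the highest mean was 4.00 CPM, that of Rgs12 (4.82 and 3.17 CPM). Named after their values were seen, Rgs11 had 37 and 211 UMIs, a log2 ratio of 1.39 (0.88 to 1.94), and Rgs5, known as a pericyte marker, had 67 and 17.

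Among the genes that RGS proteins act with, 42 of 80 in 6 lists reached 20 CPM, with a median log2 ratio of 0.05 beside 0.00 over all genes. Of the 42, 2 were past the mark on the higher side and 2 on the lower, beside a background of 1.75% and 1.3%, and all 4 were receptors. Of 7 alpha subunits 0 were past it. Gnas, the stimulatory alpha subunit, was the lowest at 459 and 274 CPM, a log2 ratio of -0.75, and Gna15, of the Gq group, the highest at 0.18. Gnai2, a Gi subunit, was at 1042 and 1125 CPM, a log2 ratio of 0.11 (0.09 to 0.13), chosen after its values were seen. Of 7 beta and gamma subunits, Gngt2 was highest (0.33) and Gng10 lowest (-0.29). Of 4 receptor kinases and arrestins, which switch receptors off, Grk2 was highest (0.28) and Arrb1 lowest (0.00). Of 6 other regulators of alpha subunits, Ccdc88a was highest, at 31.9 and 52.9 CPM or 0.73, and Arhgef12 lowest (-0.19). Of 7 effectors, which carry the signal on, Pik3r6 was highest (0.60) and Pik3cg, its catalytic partner, lowest (-0.39).

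The Gi-coupled receptors spread more widely. Of 11 above 20 CPM, 4 were higher and 7 lower. Gpr84, a receptor for medium-chain fatty acids, was highest at 178 CPM with vehicle against 696 CPM with corticosterone, for a log2 ratio of 1.97 (1.93 to 2.01). The others given here were chosen after their values were seen. C5ar1, the complement C5a receptor, was at 159 and 433 CPM, a log2 ratio of 1.44, and S1pr1, a sphingolipid receptor, at 77.9 and 27.2 CPM, a log2 ratio of -1.52. The purine receptor P2ry12 was at 6107 and 3520 CPM (-0.79) and Gpr34, a lysophosphatidylserine receptor, at 2159 and 1271 CPM (-0.76), so these abundant microglial receptors had log2 ratios close to those of Rgs2 and Rgs10. The fractalkine receptor Cx3cr1 was nearly level at 3505 and 3315 CPM (-0.08). Immediate early and dissociation genes, with which Rgs2 moved within libraries, had a median log2 ratio of -0.26 over 17 genes, from Klf2 at -1.58 to Ier3 at 0.66.

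Across the 8 sums of 4 classes and 2 libraries, which share library, depth and microglial RNA, the genes most like each member in log2(CPM + 1) were described by Pearson's r among 6261 genes. Rgs10 was most like Tspan4 (0.995), Trem2 (0.994), a microglial lipid receptor, and Abhd12 (0.993). Rgs2 was most like Clk1 (0.989), Hhex (0.988) and Pnrc1 (0.984). Rgs18 was most like Cfp (0.995), the complement factor properdin, Hacd4 (0.983) and Rell1 (0.963). Rgs14 was most like Alox5ap (0.993), of leukotriene synthesis, Cmpk2 (0.990) and Nadk (0.983). Rgs1 was nearest to Ighm (0.992), Tmem11 (0.989) and Ctss (0.986), Rgs3 to Ckap5 (0.975), Ddhd2 (0.960) and Bnip3 (0.957), and Rgs19 to Ogfrl1 (0.955), Fbxl14 (0.947) and Pbxip1 (0.944). With so few points such values are a description only.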

How the data were processed

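The authors deposited a matrix of raw UMI counts for each library, with genes by barcodes, as its whole-number values show. GRCm38 and bcl2fastq 2.19 come from the submitters' processing notes, and the aligner, counter, strand setting, annotation and cell calling are not given in the sources used here. Rgs3 and Rgs10 overlap Gm11209 and Gm15503, without shared exons. The members and lists were chosen with earlier results of these data known, and 1 gene of the naming rule is not reported here.

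Cells were kept at 500 or more UMIs, 300 or more genes and at most 20% mitochondrial UMIs, which removed 55 of 10555 and 230 of 18113 barcodes. Scrublet marked 0 cells in either library, so no doublet was removed. For clustering, 2000 variable genes without RGS genes were chosen with scanpy 1.11.5 and centred within each library. The 30 components and 15 neighbours came from scikit-learn 1.9.0. Leiden clusters at resolution 0.5 came from leidenalg 0.10.2 on a graph weighted by shared neighbours. A cluster was named for a class with at least 3 markers at 2 times or more their level in other cells of the library and detected in at least 10% of its cells, or as microglia-like when it held 3 or more microglia markers at a geometric mean of at least 0.5 times the level of all cells. It stayed unnamed when another class had at least 2 more markers than its own among the 10 leading genes, or when its relative median UMI count was under 33.3% with no own marker there. An earlier clustering without centring, with a stricter limit of 1 marker, left the main vehicle microglial cluster unnamed. Centring was adopted after that was seen, and the limit was then raised to 2 because alternatives lost large microglial clusters. The names of the clusters used here were the same under either limit. The uncentred form is kept as an alternative.

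UMIs were summed per class and library and scaled to CPM. Intervals are exact Poisson, exact binomial (Clopper-Pearson) for shares, and exact conditional for ratios, and the ratio step was tested on simulated data. For a share of 0, the upper limit allows 3 counts. The CPM ranges of 5 to 20 and 0.2 to 2, the 3 orderings into bins, the promoter motifs and the summary counts under the alternatives were chosen after values had been seen. For genes named, the rule took all members, the highest and lowest ratio of each list at 20 CPM or more, the 3 genes most like each member, and neighbours in RefSeq. Promoters of Rgs2, Rgs3, Rgs10 and Rgs19 were in the RefSeq table (4 of 7 members). Alternatives included edgeR 4.0.16 TMM factors, DESeq2 1.42.0 size factors, other cell filters, resolutions and cell subsets.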

Additional observations from a re-analysis of the deposited data

Results flagged for a closer look

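Rgs18 differed in opposite directions between classes. Its log2 ratio of corticosterone over vehicle was -1.83 in microglia-like cells, from 31 and 19 UMIs, but 0.72 in border-associated macrophage-like cells, from 285 and 289 UMIs, and 0.73 in neutrophil-like cells, from 159 and 247 UMIs. With 1 library in each group the difference between classes was not tested. The latter classes also held more of their own markers in corticosterone. Macrophage markers summed to 3789 and 7471 CPM in macrophage-like cells, and neutrophil markers to 118997 and 172867 CPM in neutrophil-like cells. The part of that difference in their Rgs18 ratios was not tested. Without the sub-clusters led by markers of other classes, the microglia-like ratio was -1.85. Beside it, transcripts of 10 neutrophil markers summed to 869 CPM in vehicle and 686 CPM in corticosterone microglia-like cells, those of 8 macrophage markers to 315 and 326 CPM, and those of 5 platelet markers, a cell type in which Rgs18 is known, to 97.6 and 59.3 CPM. The 5 platelet markers include Itgb3, which was among the leading genes of a microglia-like cluster in an alternative clustering. Their sum was 82.6 and 39.6 CPM in macrophage-like, 81.7 and 40.3 CPM in neutrophil-like and 65.6 and 39.0 CPM in monocyte-like cells. How much of these sums was platelet RNA was not tested. The part of all these transcripts in the microglia-like Rgs18 counts was not tested.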

How the results depend on the processing

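No paired analysis was possible because each group had 1 library, and no replicate could be left out. Over the 17 alternatives computed for single members, Rgs14 was past the 2-fold mark in 17 (1.23 to 1.49). Rgs18 was past it in 16, and with all cells kept, other classes included, it stood at -0.51, which left 1 member past the mark in place of 2. Rgs2 ranged from -0.74 to -0.61, Rgs10 from -0.72 to -0.59, Rgs3 from -0.51 to -0.14 and Rgs19 from 0.30 to 0.42. Rgs1 ranged from -0.11 to 0.0215, and the positive value came with DESeq2 size factors, which shifted all genes by 0.12, as TMM factors did by 0.10. Rgs3 was at -0.51 without the sub-cluster highest in immediate early genes. The share of all genes past the mark was 3.06% with the minimum of 20 CPM and 20.2% without one. Counted where the intervals of the libraries did not overlap, shares of cells were lower in corticosterone for 4 members and higher for 2 after thinning, and lower for 3 and higher for 2 without it. The same count was not made over all genes, and cells of 1 library are not replicates, so it sets no member apart. Among genes of G-protein signalling 4 of 42 were past the mark, 6 of 51 with a minimum of 5 CPM and 5 of 43 with all cells kept. The share over all genes was 3.06% for the first of these settings. For the other settings it was not computed, so those counts have no background beside them. Members below 20 CPM, Rgs14 and Rgs18, are limited by depth, as are all values in the smaller classes. No replicate, animal number or batch record was available to set against any difference, and sums over a class cannot tell fewer expressing cells from fewer transcripts per cell.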
